A study of Homo sapiens with 6 samples.

Results

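The comparison described here is the knockdown of CYLD in SAS cells while the receptor kinase ALK5 was blocked. It was formed by title from 2 of the 6 arrays of the series: siCYLD with ALK5 inhibitor (1 array) and siCtrl with ALK5 inhibitor (1 array). SAS is an established line of human oral squamous cell carcinoma. In every group the cells were transfected with a small interfering RNA, grown for 2 days, and then held for 48 h in medium free of serum. The siCYLD cells carried an siRNA against CYLD and the siCtrl cells a control siRNA. The inhibitor pair received an ALK5 inhibitor, which the labels do not name further, and the other 4 arrays (siCtrl in duplicate, siCYLD in duplicate) received the vehicle DMSO. The titles give a single siRNA against CYLD, and neither a rescue nor a further siRNA. The source names of 2 DMSO arrays (siCYLD replicate 1 and siCtrl replicate 2) name the siRNA opposite to that of their titles, whereas title and source name match on both inhibitor arrays. Titles were followed throughout, and the CYLD signals given below fall by title. With 1 array per group the inhibitor pair has no replicate, so its differences are given as values without p. The agreement of several probe sets of a gene and the gap between duplicate DMSO arrays stand beside them as checks.

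CYLD is a deubiquitinase that removes linear and lysine-linked ubiquitin chains from signalling complexes upstream of NF-κB, and its loss is known to raise NF-κB activity. NF-κB factors bind kB sites in the promoters of chemokines, cytokines, adhesion molecules and their own inhibitors. ALK5, the type I receptor for TGF-β, phosphorylates SMAD2 and SMAD3, which induce matrix genes and feedback regulators, and in epithelial cells TGF-β also slows the cell cycle. Comparing siCYLD with siCtrl under the inhibitor addresses which part of the knockdown difference is present when signalling through ALK5 is blocked.

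Promoters of 4 NF-κB target genes that were among the highest of the inhibitor pair are shown to place the kB letters before the start of each gene. The windows are the 250 bases before the start in RefSeq's promoter table (GRCh38.p14), plus strand, 5′ to 3′. TNFAIP3 lies at chr6:137867009-137867258, CXCL8 at chr4:73740319-73740568, CXCL1 at chr4:73869143-73869392 and ICAM1 at chr19:10270870-10271119. Capitals mark each match, on either strand, to the kB letters GGNNNTTCC or to the AP-1 letters TGANTCA.
TNFAIP3: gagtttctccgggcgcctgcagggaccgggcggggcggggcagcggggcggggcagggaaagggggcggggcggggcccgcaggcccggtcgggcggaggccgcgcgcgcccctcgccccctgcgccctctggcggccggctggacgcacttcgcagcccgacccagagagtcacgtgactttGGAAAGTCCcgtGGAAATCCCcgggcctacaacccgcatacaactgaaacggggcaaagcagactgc
CXCL8: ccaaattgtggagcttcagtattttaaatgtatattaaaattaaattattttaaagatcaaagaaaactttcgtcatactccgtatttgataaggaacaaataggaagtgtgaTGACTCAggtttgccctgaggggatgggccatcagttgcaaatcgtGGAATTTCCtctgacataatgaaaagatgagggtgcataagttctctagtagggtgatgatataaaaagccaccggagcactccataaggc
CXCL1: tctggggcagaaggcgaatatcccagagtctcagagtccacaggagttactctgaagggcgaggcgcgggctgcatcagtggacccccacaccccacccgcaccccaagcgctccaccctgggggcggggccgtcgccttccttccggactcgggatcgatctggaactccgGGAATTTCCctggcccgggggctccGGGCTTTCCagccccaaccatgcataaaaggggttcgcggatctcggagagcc
ICAM1: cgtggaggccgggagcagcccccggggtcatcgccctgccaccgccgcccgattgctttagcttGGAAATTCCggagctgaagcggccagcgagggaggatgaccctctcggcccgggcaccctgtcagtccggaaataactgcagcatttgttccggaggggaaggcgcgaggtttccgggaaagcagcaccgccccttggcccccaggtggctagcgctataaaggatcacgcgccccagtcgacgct

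TNFAIP3 and CXCL1 each hold 2 stretches with the kB letters, and CXCL8 and ICAM1 hold 1 each. The AP-1 letters stand in the CXCL8 window, upstream of its kB match, and no marked stretch overlaps another. The kB letters were found in 17.1% of all 35116 windows and in 19.4% of the 15117 windows of genes tested here. Among the 50 NF-κB targets tested, 41 had a window in the table, and 28 of their 67 windows (41.8%) held the kB letters. Proliferation genes held them in 15 of 64 windows (23.4%) and TGF-β targets in 13 of 60 (21.7%). The AP-1 letters stood in 8 of the 67 NF-κB target windows (11.9%), against 6.57% of all windows and 4.67% of windows of genes tested. They stood in 4 of 60 TGF-β target windows (6.67%) and in 0 of 64 windows of proliferation genes. The lists were drawn up in part from genes known for such sites, so these shares describe the windows and are no evidence of binding.

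Deposited MAS5 signals had the same trimmed mean of 500.1 on each array, with medians of 73.4 to 84.8. Pearson's r of log2 values was taken across all 41091 probe sets with 1 gene symbol, dim ones included. It was 0.9782 for the siCtrl duplicates, 0.9782 for the siCYLD duplicates and 0.9706 for the inhibitor pair. The labels do not say whether duplicates came from separate cultures, so p-values reflect how far these few arrays spread, which may be technical variation alone. The epithelial markers CDH1, EPCAM, KRT5, KRT14 and DSG3 were kept and summed to 48850 in siCtrl and 39840 in siCYLD with inhibitor. KRT17, KRT6A and TP63 were listed with them but had no probe set with 1 gene symbol, so they were not read. KRT14 was dim, at 107 and 81.4. Summed markers of other cells were lower: 9 endothelial markers summed to 1041 and 925.8, 10 fibroblast markers to 1793 and 1532, and 9 leukocyte markers to 337.3 and 357, with no marker listed at 0. The brightest of these were FBLN1 (1026 and 590) and CDH5 (587 and 462), and CDH5 read 5.83 to 63.0 in DMSO. The 3′ to 5′ signal ratio of ACTB, a measure of RNA integrity, was 3.41, 3.21 and 3.67 on the siCtrl arrays and 2.26, 2.48 and 2.38 on the siCYLD arrays. Poly-A spike-in probe sets (24) were higher in siCYLD by a median of 0.32 on the log2 scale with inhibitor and by 0.39 and 0.18 in the same-numbered DMSO pairs. The same ratio of GAPDH was 2.14, 1.79 and 1.87 on the siCtrl arrays and 1.8, 1.91 and 1.97 on the siCYLD arrays. The ACTB ratio and the spike-ins therefore moved with the siRNA, whereas the GAPDH ratios overlapped. The part of the ACTB ratio and the spike-ins in the differences below was not tested. In a bulk sample, fewer cells expressing a gene and less RNA per cell cannot be told apart.

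CYLD itself was lower in siCYLD with inhibitor. Its brightest kept probe set gave 349 in siCtrl and 176 in siCYLD with inhibitor, a difference of -0.93 on the log2 scale, against 411 and 500 in DMSO siCtrl and 278 and 230 in DMSO siCYLD. All 3 siCYLD arrays lay below all 3 siCtrl arrays. The 4 kept probe sets differed by -2.33 to -0.68, and the lowest of them left 16.9% of the siCtrl signal. The other 3, too dim to be kept, differed by 0.18, 0.98 and -0.03. Without inhibitor CYLD fell by 0.80 (SE 0.18, adjusted p = 0.0065, limma), and the difference with inhibitor was not distinguishable from it (interaction -0.13, SE 0.31, adjusted p = 0.902).

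Among 12935 genes tested, 870 differed 2-fold or more within the inhibitor pair. Of these, 506 (3.91%) were higher in siCYLD and 364 (2.81%) lower. Values are log2 differences on the scale log2(signal + 16.06), which understates changes of dim genes. The median of all genes was -0.01, and no shift was applied. Single DMSO arrays of the same replicate number, siCYLD against siCtrl, differed 2-fold in 844 and 880 genes. Between duplicates, 256 genes differed 2-fold in siCtrl and 243 in siCYLD, nearly all of them dim. In the lowest quartile of mean signal 559 genes differed 2-fold in the inhibitor pair and 250 and 235 between duplicates. In the upper 2 quartiles 86 and 70 genes differed in the pair, against 0 or 1 between duplicates. The differences of 820 of the 870 genes were larger than both duplicate gaps of the same gene. Because the 870 were picked at 2-fold and duplicate gaps of that size were few, most would pass by selection alone. The share over all genes tested is not given here.

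**Figure D1:**
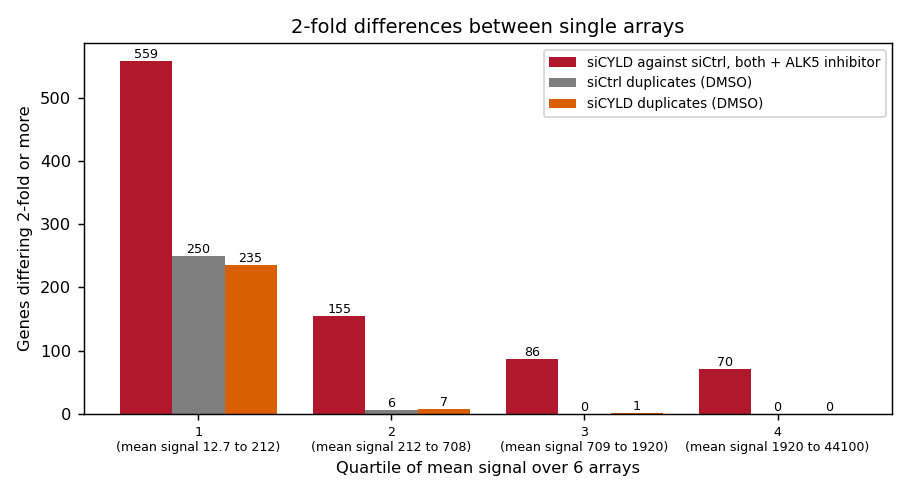
Number of genes differing 2-fold or more (y axis) by quartile of mean signal over 6 arrays (x axis), for siCYLD against siCtrl with ALK5 inhibitor (red) and between the siCtrl (grey) and siCYLD (orange) duplicates. Above the lowest quartile the duplicates hold at most 7 such genes per quartile, whereas the inhibitor pair holds 155, 86 and 70.

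Agreement of probe sets could be read for 6445 genes with 2 or more kept probe sets. Of these, 259 differed 2-fold by their brightest probe set, and in 84.2% of them every kept probe set had the same sign, against 56.3% of all 6445. All kept probe sets were 2-fold or more higher in 51 genes (0.791%) and 2-fold or more lower in 30 (0.465%). Probe sets of a gene read the same RNA, so this agreement checks the probes and not the culture. For the 611 genes with 1 kept probe set that differed 2-fold, no such check exists. Probe sets without a gene symbol added 187 higher and 153 lower among 4435 kept.

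The DMSO knockdown, which shares no array with the inhibitor pair, gave the base of comparison: 1227 genes rose (9.49%) and 1530 fell (11.8%) at an adjusted p under 0.05 in limma. Across all genes tested the differences of both pairs correlated at 0.508, a description over genes and not over replicates. Of the 252 genes that were called and rose 2-fold or more in DMSO, 117 (46.4%) were also 2-fold higher with inhibitor, which is 23.1% of the 506. Of the 301 that were called and fell 2-fold or more, 77 (25.6%) were 2-fold lower with inhibitor, which is 21.2% of the 364. The knockdown by inhibitor interaction tests the difference of both differences, on the assumption that each lone inhibitor array varies as the duplicates do. It called 127 genes with a higher difference under inhibitor (0.982%) and 89 with a lower one (0.688%). Of the 127, 94 had fallen in DMSO, and of the 89, 58 had risen there. The DMSO difference enters the interaction with its sign reversed, so part of this opposition follows from the construction. These calls rest on moderation that follows the intensity trend: without the trend 0 genes were called, with a lowest adjusted p of 0.0922 and 1480 genes at an unadjusted p under 0.05, and with the DMSO arrays grouped by source name it was also 0, with 524 at an unadjusted p under 0.05. With a replicate number as block the count was 723, and without single DMSO arrays 288 to 458. With no filter on dim genes it was 33. Of 52 called interactions of named genes, 13 then kept their call: TNFAIP3, PTX3, SGK1, TIMP3, FN1, TGFBI, THBS1, PMEPA1, CST6, COL7A1, SNAI2, RRM2 and CDC20. With the mean of all kept probe sets 22 of the 52 were lost, among them CXCL1, IL6, ICAM1, TNFAIP2, EDN1, NRP1, EREG, TGFA, EGR1, THBS1, SMURF2, HMMR and SGPP2. With an offset of 1 those of EDN1, EREG, KRT5, SYT15 and MSC-AS1 were lost.

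The 5 genes set out for this comparison were all higher in siCYLD under the inhibitor. TNFAIP3, the ubiquitin-editing feedback inhibitor of NF-κB, had a signal of 574 in siCtrl and 7327 in siCYLD, against 668 and 610 in DMSO siCtrl and 1978 and 2031 in DMSO siCYLD. The inhibitor siCYLD array stood far above every other array, by 3.64 over its siCtrl partner (2 probe sets, 3.64 and 3.71). The DMSO difference was 1.63, and the interaction of 2.01 (SE 0.20) passed the test (adjusted p = 0.000254). INHBA, which encodes the activin A subunit, read 583 in siCtrl and 14469 in siCYLD with inhibitor, against 368 and 405 in DMSO siCtrl and 5858 and 5060 in DMSO siCYLD. All 3 siCYLD arrays exceeded all siCtrl arrays, the difference with inhibitor was 4.60 (3 probe sets, 3.31 to 4.60), and the interaction of 0.83 (SE 0.20) did not pass (adjusted p = 0.0617). Activin A signals through ALK4, a receptor kinase related to ALK5. VEGFC, a growth factor for lymphatic vessels, read 1646 in siCtrl and 13362 in siCYLD with inhibitor, against 1022 and 983 in DMSO siCtrl and 11235 and 11983 in DMSO siCYLD. Its difference of 3.01 rested on 1 probe set, and was 3.51 in DMSO (interaction -0.50, SE 0.17, adjusted p = 0.173). CXCL8, the neutrophil chemokine interleukin-8, read 41.8 in siCtrl and 388 in siCYLD with inhibitor, against 60.2 and 38.1 in DMSO siCtrl and 277 and 209 in DMSO siCYLD. The difference was 2.81 by the brighter and 1.48 by the dimmer probe set, and 2.00 in DMSO. MMP1, the interstitial collagenase, read 10.04 in siCtrl and 1187 in siCYLD with inhibitor, against 1.23 and 22.0 in DMSO siCtrl and 175 and 139 in DMSO siCYLD. Its siCtrl signals lay in the dim range of the array, so the difference of 5.53, from 1 probe set, ran from 4.08 to 6.75 over the alternatives (interaction 2.78, SE 0.71, adjusted p = 0.0778).

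**Figure D2:**
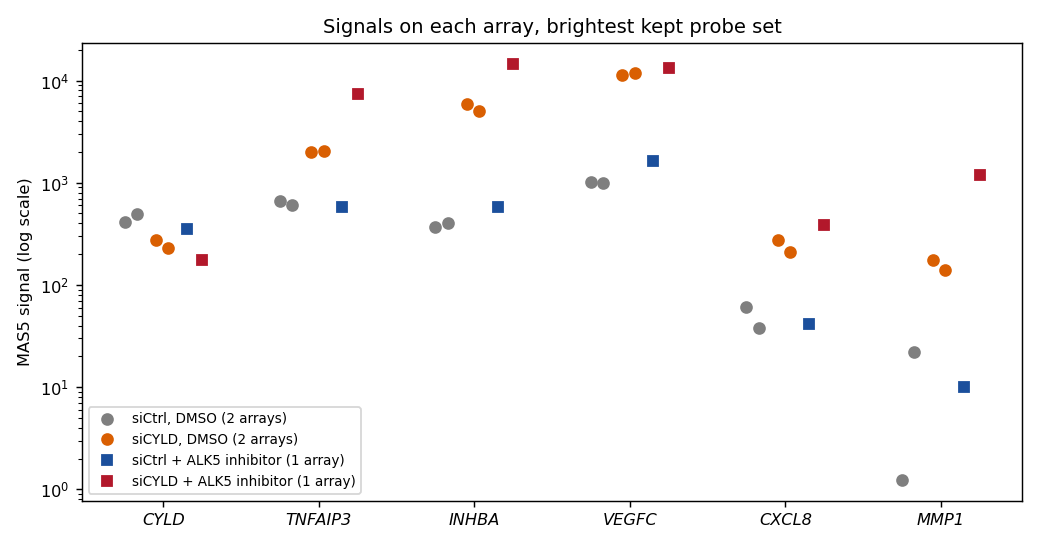
MAS5 signal (log axis) of CYLD, TNFAIP3, INHBA, VEGFC, CXCL8 and MMP1 on each of the 6 arrays, by the brightest kept probe set of each gene. Circles are DMSO arrays and squares are inhibitor arrays: for the last 5 genes the siCYLD inhibitor array (red square) stands highest, with TNFAIP3 at 7327 against 574 in its siCtrl partner.

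Secreted NF-κB targets were the list with the highest median. Of 25 chemokines and cytokines listed, 24 had a probe set with 1 symbol and 15 were kept. Of these 15, 11 (73.3%, against 3.91% of all genes tested) were 2-fold or more higher in siCYLD with inhibitor and 1 lower. The median difference was 1.65, against -0.01 for all genes. Several members were kept through the siCYLD arrays where they are high, so the median over all 24, with no filter, was lower at 1.04, with 12 higher and 2 lower. In DMSO the kept members had a median of 1.09 and 10 rose. CXCL1, a neutrophil chemokine, read 214 in siCtrl and 1547 in siCYLD with inhibitor, against 314 and 297 in DMSO siCtrl and 968 and 657 in DMSO siCYLD. The inhibitor siCYLD array was highest and its siCtrl partner lowest, a difference of 2.76 (interaction 1.42, SE 0.30, adjusted p = 0.0325). IL6, the pleiotropic cytokine interleukin-6, read 659 in siCtrl and 1612 in siCYLD with inhibitor, whereas the 4 DMSO arrays lay between 646 and 835. Its difference was 1.27 with inhibitor and 0.23 in DMSO, where it was not called (adjusted p = 0.229), and the interaction of 1.04 (SE 0.22) passed at an adjusted p = 0.0348. CXCL2 and IL1B differed by about as much with inhibitor (1.77 and 1.48) as in DMSO (1.75 and 1.37). CCL20, a chemokine for lymphocytes and dendritic cells, read 313 in siCYLD with inhibitor and 7.21 to 28.3 on the other 5 arrays, a difference of 2.89 that ran from 2.03 to 3.42 over the alternatives (interaction 2.85, SE 1.02, adjusted p = 0.219). CSF3, the granulocyte growth factor, read 10.5 and 127 and the cytokine IL32 24.1 and 189 with inhibitor. Both siCtrl signals were dim, so their differences of 2.43 and 2.35 ran from 1.36 to 3.47 and from 1.52 to 2.92 over the alternatives. TNFSF10, a death receptor ligand, was the member that was 2-fold lower (-1.03).

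Feedback inhibitors and subunits of NF-κB were higher as well. Of 15 listed, 13 were on the array and 12 kept. With inhibitor 5 (41.7%, against 3.91% of all genes tested) were 2-fold higher and 0 lower. The median was 0.90 against 0.92 in DMSO, where 9 rose and 1, CYLD itself, fell. Beside TNFAIP3 the 2-fold members were TNIP1 (1.43, but 0.10 by its dimmer probe set), which partners TNFAIP3, NFKB2 (1.21) and RELB (1.13), subunits of the non-canonical pathway, and NFKBIA (1.18), the inhibitor IκBα. The dimmer kept probe sets of NFKB2 and NFKBIA were under 2-fold, at 0.80 and 0.85. NFKBIA read 4475 in siCtrl and 10173 in siCYLD with inhibitor, against 3797 and 3945 in DMSO siCtrl and 9161 and 9002 in DMSO siCYLD, so its difference was nearly as large without inhibitor (interaction -0.05, SE 0.15, adjusted p = 0.929). The receptors, kinases and adaptors of the pathway gave a median of 0.11 over 24 tested members, with 1, the kinase IRAK2, 2-fold higher. IRAK2 differed by 1.86 with inhibitor and by 1.85 without. Partners of CYLD and the linear ubiquitin machinery had a median of -0.13 over 20 members, of which 1, TUFT1, was 2-fold lower (-1.07).

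Adhesion, survival and effector targets of NF-κB numbered 31, of which 27 were on the array and 23 kept. With inhibitor 11 were 2-fold higher (47.8%, against 3.91% of all genes tested) and 1, GADD45B, lower. The median was 0.81 against 0.42 in DMSO. Count and median are those of kept members, and NOD2, given below, was kept only through the siCYLD inhibitor array where it is high. ICAM1, which binds leukocyte integrins, read 581 in siCtrl and 3654 in siCYLD with inhibitor, against 832 and 703 in DMSO siCtrl and 2438 and 2214 in DMSO siCYLD. Its 3 probe sets differed by 1.83 to 2.62, and the interaction was 1.04 (SE 0.21, adjusted p = 0.0274). PTX3, a soluble pattern recognition protein, differed in opposite directions: it read 451 in siCtrl and 1717 in siCYLD with inhibitor, but 409 and 477 in DMSO siCtrl and 202 and 205 in DMSO siCYLD. The difference was 1.89 with inhibitor and -1.06 without, an interaction of 2.95 (SE 0.26, adjusted p = 0.000145). TNFAIP2, a TNF-induced protein, differed by 1.45 with inhibitor (0.93 by its dimmer probe set) and 0.45 in DMSO (interaction 1.0, SE 0.16, adjusted p = 0.00584). TNFRSF9, a costimulatory receptor, differed by 2.65 (3 probe sets, 1.80 to 2.65) and the peptidoglycan sensor NOD2 by 2.75, the latter at 12.7 and 177 with 1 probe set (1.65 to 3.71 over the alternatives). MMP9, the gelatinase, went the other way. It read 74.9 in siCtrl and 128 in siCYLD with inhibitor, against 140 and 137 in DMSO siCtrl and 1004 and 1044 in DMSO siCYLD, and its difference was 0.66 with inhibitor and 2.75 without (interaction -2.09, SE 0.31, adjusted p = 0.00486). MMP9 also stands on the list of TGF-β matrix targets.

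**Figure D3:**
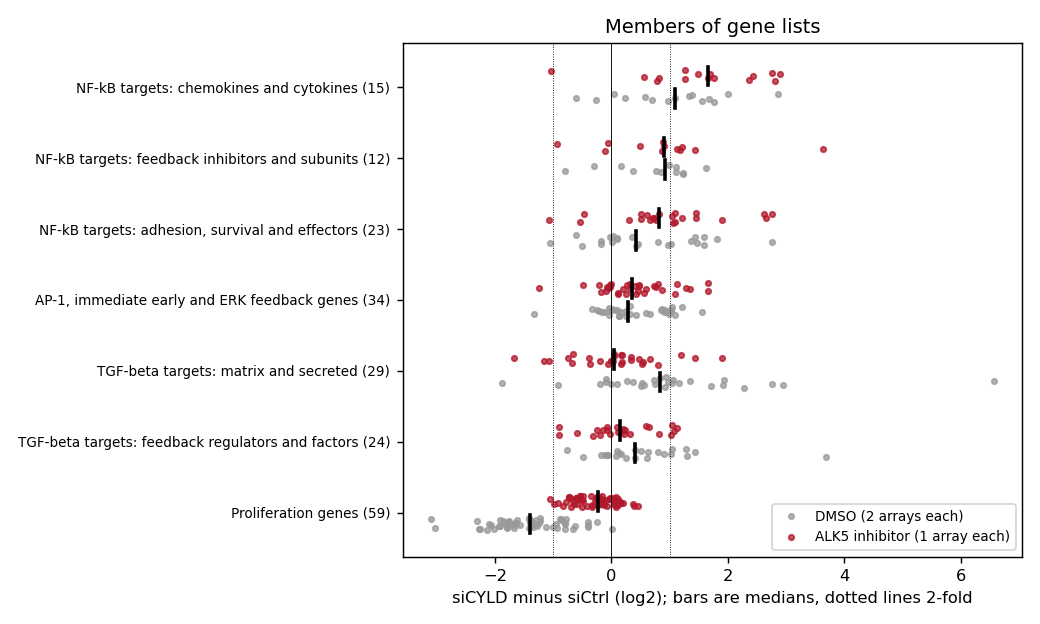
Log2 difference siCYLD minus siCtrl (x axis) for each tested member of 7 gene lists (member numbers in brackets), with ALK5 inhibitor in red (1 array each) and in DMSO in grey (2 arrays each); black bars are medians and dotted lines mark 2-fold. The chemokine and cytokine median is 1.65 with inhibitor and 1.09 without, the TGF-β matrix median 0.05 and 0.84, and the proliferation median -0.23 and -1.41.

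Angiogenic factors, proteases and AP-1 genes held further members that were higher with inhibitor. Of 11 tested VEGF and angiogenic factors, 4 (36.4%, against 3.91% of all genes tested) were 2-fold higher and 0 lower, with a median of 0.26 against 0.21 in DMSO. The 4 were VEGFC, EDN1, NRP1 and ANGPTL4. ANGPTL4 (1.19) was dim on both inhibitor arrays, at 11.6 in siCtrl and 46.8 in siCYLD. It was kept only through the DMSO siCYLD arrays, and its other kept probe set was at -0.26 with inhibitor. EDN1, the vasoconstrictor endothelin-1, read 82.9 in siCtrl and 563 in siCYLD with inhibitor, whereas the 4 DMSO arrays lay between 49.1 and 90.6. Its difference was 2.55 (2 probe sets, 2.36 and 2.55) against 0.03 in DMSO, an interaction of 2.52 (SE 0.55, adjusted p = 0.0382). NRP1, a co-receptor for VEGF, differed by 2.04 (2 probe sets, 1.98 and 2.04) against 1.05 in DMSO, with 322 in siCtrl and 1370 in siCYLD (interaction 0.98, SE 0.22, adjusted p = 0.0382). FGF2, a fibroblast growth factor, differed by 0.05 with inhibitor and 1.02 without (interaction -0.97, SE 0.15, adjusted p = 0.00605). Among 17 matrix metalloproteinases and inhibitors tested, MMP1 and MMP10 were 2-fold higher, the latter at 49.9 in siCtrl and 717 in siCYLD on 1 probe set, and MMP7, a matrilysin, was lower by -2.11, with a dim siCYLD signal of 8.38 (-3.27 to -1.08 over the alternatives). TIMP3, an inhibitor of metalloproteinases, read 6495 in siCtrl and 6488 in siCYLD with inhibitor, against 2999 and 3254 in DMSO siCtrl and 778 and 897 in DMSO siCYLD. The DMSO difference of -1.88 was 0.00 with inhibitor by the brightest probe set and -0.72 by the lowest of 4 (interaction 1.88, SE 0.19, adjusted p = 0.000254). The urokinase PLAU and its receptor PLAUR were higher by 1.05 (2 probe sets, 1.05 and 1.86) and 1.08 (3 probe sets, 0.20 to 1.43).

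Of 34 members tested on the list of AP-1, immediate early and ERK-induced genes, 6 (17.6%) were 2-fold higher with inhibitor and 1 (2.94%), the ERK feedback gene SPRY1, lower. Among all genes tested 3.91% were higher and 2.81% lower. The median of the list was 0.36 against 0.28 in DMSO. FOSL1, an AP-1 subunit, read 3154 in siCtrl and 9986 in siCYLD, a difference of 1.66 against 0.99 in DMSO, and the cytokine LIF differed by 1.65 against 1.56. The EGF family ligands EREG and TGFA differed by 1.35 and 1.18 with inhibitor and by 0.59 and 0.37 in DMSO, and both interactions passed (0.76, SE 0.17, adjusted p = 0.0464, and 0.81, SE 0.18, adjusted p = 0.0403). FOS, the founding AP-1 gene, was dim on both inhibitor arrays, at 96.9 in siCtrl and 259 in siCYLD, against 1075 and 1052 in DMSO siCtrl and 945 and 883 in DMSO siCYLD. Its difference was 1.28 with inhibitor and -0.22 in DMSO (interaction 1.498, SE 0.24, adjusted p = 0.00585). EGR1, a zinc finger immediate early factor, showed the same layout, with 3497 in siCtrl and 5961 in siCYLD with inhibitor against 19770 to 22263 in DMSO (interaction 0.68, SE 0.14, adjusted p = 0.0325).

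Matrix targets of TGF-β had a smaller median difference with inhibitor than in DMSO. Of 36 listed, 32 were on the array and 29 kept. In DMSO 18 rose and 2 fell, against 9.49% and 11.8% of all genes tested, with a median of 0.84. With inhibitor 3 (10.3%) were 2-fold higher and 3 (10.3%) lower, against 3.91% and 2.81% of all genes tested. The median with inhibitor was 0.05. The interaction was lower for 8 members and higher for 1, TIMP3, against 0.688% and 0.982% of all genes tested. FN1, which encodes fibronectin, read 137 in siCtrl and 558 in siCYLD with inhibitor, against 226 and 177 in DMSO siCtrl and 20866 and 20244 in DMSO siCYLD. Its difference was 1.90 with inhibitor and 6.57 without, an interaction of -4.67 (SE 0.23, adjusted p = 4.01e-07). Of its 6 kept probe sets 5 were higher with inhibitor by 1.57 to 2.41, and the sixth was at -0.19; that probe set alone represents FN1 when probe sets that may cross-hybridise are left out, and its interaction was not called. TGFBI, a secreted matrix protein named for its induction by TGF-β, read 14622 in siCtrl and 6546 in siCYLD with inhibitor, against 8045 and 9534 in DMSO siCtrl and 29204 and 28449 in DMSO siCYLD. Here the inhibitor siCYLD array was the lowest of 6, and the difference went from 1.72 to -1.16 (interaction -2.87, SE 0.16, adjusted p = 1.08e-06). THBS1, thrombospondin-1, read 15112 in siCtrl and 4749 in siCYLD with inhibitor, while the 4 DMSO arrays lay between 7547 and 8578. All 7 kept probe sets were lower with inhibitor, by -2.23 to -0.62, against -0.09 in DMSO by the brightest (interaction -1.57, SE 0.15, adjusted p = 0.000254), although the call was lost with the mean of probe sets or without those that may cross-hybridise. COL7A1, the anchoring fibril collagen, and the protease inhibitor CST6 differed by 0.00 and -0.05 with inhibitor and by 1.92 and 1.93 in DMSO (interactions -1.92, SE 0.19, and -1.98, SE 0.23, adjusted p = 0.000254 and 0.000745), and the dimmer CST6 probe set was at -1.14 with inhibitor. TNC, the matrix protein tenascin-C, was an exception, with 1.44 against 1.15 (interaction 0.29, SE 0.16, adjusted p = 0.451), and its signal was 3025 in siCtrl and 8251 in siCYLD with inhibitor. Its 3 kept probe sets ran from 0.59 to 1.44 with inhibitor.

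Feedback regulators and transcription factors downstream of TGF-β numbered 30, of which 24 were kept. With inhibitor 4 (16.7%, against 3.91% of all genes tested) were 2-fold higher and 0 lower, and the median was 0.15 against 0.41 in DMSO. The interaction was lower for 4 and higher for 0, against 0.688% and 0.982% of all genes tested. PMEPA1, which restrains SMAD signalling, read 170 in siCtrl and 377 in siCYLD with inhibitor, against 417 and 403 in DMSO siCtrl and 5234 and 5673 in DMSO siCYLD. The difference was 1.08 with inhibitor (3 probe sets, 0.92 to 1.75) and 3.68 without, an interaction of -2.60 (SE 0.21, adjusted p = 8.25e-05). SMAD7, the inhibitory SMAD, differed by -0.58 and 0.80 (interaction -1.38, SE 0.24, adjusted p = 0.00897), and the cell cycle inhibitor CDKN1A by -0.32 and 0.62 (interaction -0.94, SE 0.16, adjusted p = 0.00949). SNAI2, a zinc finger repressor of epithelial genes, read 4653 in siCtrl and 2498 in siCYLD with inhibitor, while the 4 DMSO arrays lay between 2119 and 2594 (interaction -1.14, SE 0.17, adjusted p = 0.00486). HMGA2, a chromatin protein, differed by 1.13 with inhibitor (6 probe sets, 1.08 to 1.86) and by 1.28 without, and the zinc finger gene KLF10 by 1.04 and 1.03. SGK1, a serum and glucocorticoid kinase, kept a large difference at a lower level: 124 in siCtrl and 1105 in siCYLD with inhibitor, against 216 and 244 in DMSO siCtrl and 6170 and 5668 in DMSO siCYLD (3.0 and 4.59, interaction -1.59, SE 0.22, adjusted p = 0.0038).

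Ligands, receptors and SMADs of the TGF-β and activin families formed a list of 31 tested members, which also held TGFA, a ligand of the EGF family. Without TGFA the median over 30 was 0.29 with inhibitor and 0.26 in DMSO, and 5 were 2-fold higher and 1 lower. Among all genes tested 3.91% were higher and 2.81% lower. NODAL (1.67), counted among the 5, was kept only through the siCYLD inhibitor array where it is high, at 79.4 against 13.9 in siCtrl. With no filter it was at -1.54, by another probe set. SMAD3, a direct substrate of ALK5, read 4012 in siCtrl and 10400 in siCYLD with inhibitor, a difference of 1.37 (4 probe sets, 0.74 to 1.57) against 0.74 in DMSO (interaction 0.63, SE 0.16, adjusted p = 0.0695). GDF11, a ligand of the family, differed by 1.72 (3 probe sets, 0.68 to 1.72). SMURF2, a ubiquitin ligase for the receptors, differed by -0.20 with inhibitor and 0.68 without (interaction -0.88, SE 0.16, adjusted p = 0.0112).

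**Figure D4:**
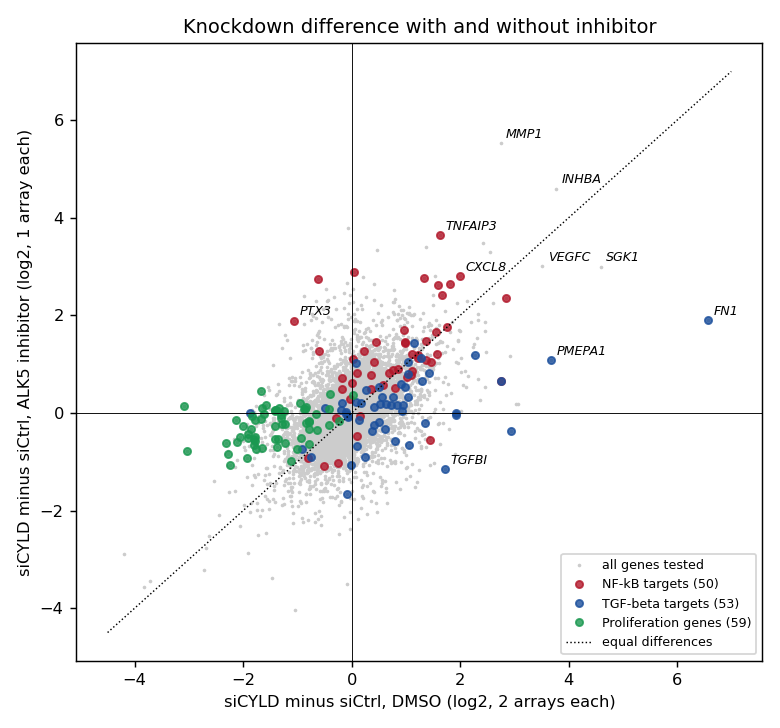
Log2 difference siCYLD minus siCtrl with ALK5 inhibitor (y axis, 1 array each) against that in DMSO (x axis, 2 arrays each) for all 12935 genes tested (grey), with NF-κB targets (50, red), TGF-β targets (53, blue) and proliferation genes (59, green); the dotted line marks equal differences. FN1 (6.57, 1.90), PMEPA1 (3.68, 1.08) and TGFBI (1.72, -1.16) lie below the line and TNFAIP3 (1.63, 3.64) and PTX3 (-1.06, 1.89) above it.

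Proliferation genes had a smaller median difference with inhibitor than in DMSO. All 59 listed were kept. In DMSO 55 fell and 0 rose, against 11.8% and 9.49% of all genes tested. The fall was 2-fold or more in 42, and the median was -1.41. With inhibitor 0 were 2-fold higher and 1, CCNB2, lower (1.69%, against 2.81% of all genes tested). The median was -0.23, with 43 below 0 and 16 above. CENPA, a centromere histone, and NUF2, a kinetochore protein, lay just short of 2-fold at -0.99 and -0.92. The interaction was higher for 24 and lower for 0, against 0.982% and 0.688% of all genes tested. Relative to the mean of the DMSO siCtrl duplicates, the median level of the list was -1.33 and -1.54 on the siCYLD duplicates, 0.44 on the siCtrl inhibitor array and 0.16 on the siCYLD inhibitor array. MKI67, which encodes the proliferation antigen Ki-67, read 560 in siCtrl and 627 in siCYLD with inhibitor, against 563 and 662 in DMSO siCtrl and 220 and 172 in DMSO siCYLD. Its difference was 0.16 with inhibitor (4 probe sets, -0.04 to 0.21) and -1.57 without (interaction 1.73, SE 0.29, adjusted p = 0.00761). CDC20, an activator of the anaphase-promoting complex, read 3010 in siCtrl and 2964 in siCYLD with inhibitor, against 2371 and 2475 in DMSO siCtrl and 802 and 759 in DMSO siCYLD (interaction 1.59, SE 0.19, adjusted p = 0.000852). RRM2, a subunit of ribonucleotide reductase, was higher by 0.46 with inhibitor and fell by 1.67 in DMSO (interaction 2.13, SE 0.21, adjusted p = 0.000254). TOP2A, topoisomerase IIα, kept a part of its difference, -0.49 against -2.06 (interaction 1.57, SE 0.23, adjusted p = 0.0041), as did HMMR, a spindle protein, with -0.84 against -2.28 (interaction 1.44, SE 0.25, adjusted p = 0.0109). CCNB2, a mitotic cyclin, differed by -1.06 by its brighter and 0.85 by its dimmer probe set. The count of 24 was 5 with no filter on dim genes, 15 without probe sets that may cross-hybridise, 37 with a replicate block and 23 to 35 without single DMSO arrays.

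**Figure D5:**
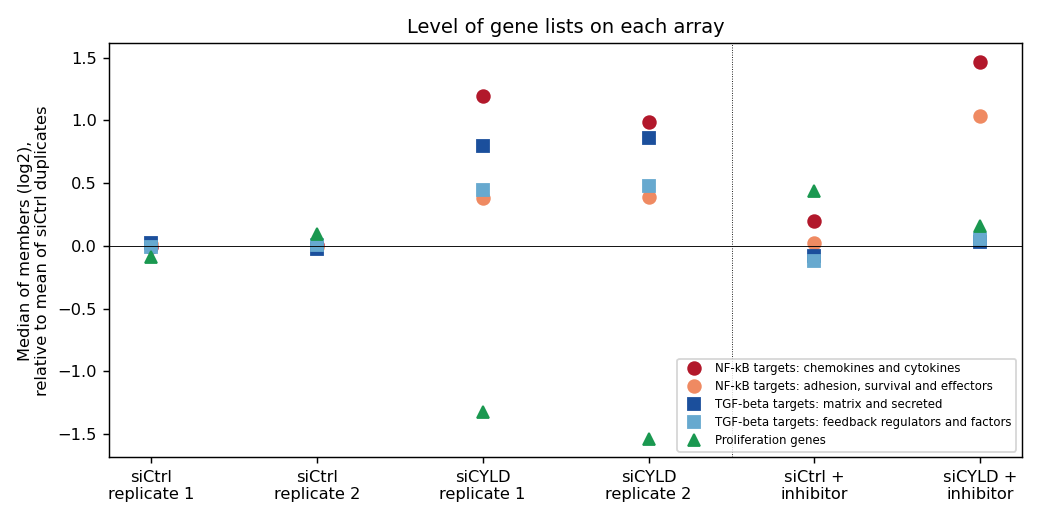
Median log2 level of list members on each array (y axis), relative to the mean of the siCtrl DMSO duplicates, for 2 NF-κB lists (circles), 2 TGF-β lists (squares) and proliferation genes (triangles); the dotted line parts DMSO from inhibitor arrays. On the siCYLD inhibitor array the chemokine list stands at 1.46 and the proliferation list at 0.16, whereas the TGF-β lists stand at 0.03 and 0.05.

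Among genes lower in siCYLD with inhibitor were several of epithelial differentiation and identity. SCEL, which encodes the cornified envelope precursor sciellin, read 831 in siCtrl and 61.6 in siCYLD with inhibitor, against 2316 and 2085 in DMSO siCtrl and 159 and 144 in DMSO siCYLD. All 3 probe sets were lower, by -3.45 to -1.95, and the DMSO difference was -3.72 (interaction 0.28, SE 0.26, adjusted p = 0.692). The squamous differentiation list held 3 lower (20%) and 1 higher (6.67%) member of 15 tested, against 2.81% and 3.91% of all genes tested. The higher one was the gap junction gene GJB2 (3.30, 1 probe set). The median of the list was 0.00 with inhibitor and -0.03 in DMSO. KRT5, the basal keratin, was far brighter on both inhibitor arrays, at 12525 in siCtrl and 5595 in siCYLD, than on the DMSO arrays, at 900 to 1245. Its difference was -1.16 with inhibitor and -0.32 without, and the interaction of -0.84 (SE 0.19, adjusted p = 0.0463) was not called with the mean of probe sets, with no filter, with an offset of 1 or without probe sets that may cross-hybridise. SOX2 and DSG3, a stem cell factor and a desmosomal cadherin, were lower by -1.21 and -1.16. The dimmer kept probe set was at -0.81 for SOX2 and -1.11 for DSG3. Of 36 epithelial junction and identity genes tested, 4 (11.1%) were 2-fold lower and 1 (2.78%) higher, against 2.81% and 3.91% of all genes tested. The higher one, PKP1, was kept only through the siCYLD inhibitor array where it is high. The median of the list was -0.14 against -0.13 in DMSO.

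Agreement across probe sets was found for further lower genes whose DMSO difference was of the same sign. VSIR, an immune checkpoint molecule, read 1687 in siCtrl and 473 in siCYLD with inhibitor, against 3378 and 3196 in DMSO siCtrl and 1146 and 1124 in DMSO siCYLD, a difference of -1.80 (2 probe sets, -1.98 and -1.80). MAP2, a microtubule-associated protein, differed by -1.89 (2 probe sets, -2.47 and -1.89) against -1.28 in DMSO. CCDC80, a secreted matrix protein, differed by -2.15 by the brighter and -3.49 by the dimmer probe set, against -0.92 in DMSO (interaction -1.22, SE 0.32, adjusted p = 0.0843). The transporter gene SLC47A2, with 1 probe set, was at 418 in siCtrl and 10.3 in siCYLD with inhibitor. The latter lies below the offset, and the difference of -4.04 ran from -5.21 to -2.70 over the alternatives (-1.04 in DMSO, interaction -3.0, SE 0.57, adjusted p = 0.0174). The atypical cadherin FAT4 (-3.23) and the collagen gene COL8A1 (-2.89), each with 1 kept probe set, were lower in DMSO too, by -2.73 and -4.20. COL8A1 was dim in siCYLD, at 8.48, and its inhibitor difference ran from -4.13 to -1.66 over the alternatives.

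Genes 2-fold or more the same way in both pairs, whether or not called in DMSO, numbered 227, of which 138 were higher and 89 lower. Ranked by the smaller difference they led with INHBA, TNNI2 (a troponin subunit gene, -3.57 and -3.84), SCEL, VEGFC, SGK1 and COL8A1. MTSS1, an actin and membrane-binding protein, read 2135 in siCtrl and 10510 in siCYLD with inhibitor, a difference of 2.29 by the brightest of 3 probe sets (1.38 to 3.12) against 2.13 in DMSO. A further 50 genes had a called interaction without a called DMSO difference, and 27 of them were 2-fold in the inhibitor pair. Beside EDN1, IL6, FOS, THBS1 and KRT5 these included LOXL2, a lysyl oxidase that crosslinks collagen, at 830 in siCtrl and 2037 in siCYLD with inhibitor against 918 to 1081 in DMSO (interaction 1.40, SE 0.21, adjusted p = 0.0049). ESPN, an actin-bundling protein, read 15.8 and 204 with inhibitor against 217 to 286 in DMSO, so the siCtrl inhibitor array was the one that stood apart. SGPP2, a sphingosine phosphate phosphatase, had a called DMSO difference as well, and read 65.9 and 855 with inhibitor (3.41, 2 probe sets, 2.26 and 3.41, interaction 2.03, SE 0.36, adjusted p = 0.0115).

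Other lists had few members past 2-fold. NRF2 genes had a median of -0.29 over 15 members, with 3 (20%, against 2.81% of all genes tested) lower 2-fold. These were SLC7A11, the cystine transporter (-1.11, 3 probe sets, -1.11 to -0.90), GCLC, of glutathione synthesis (-1.02, 3 probe sets, -1.06 to -0.14), and NQO1, a quinone reductase (-1.0, 3 probe sets, -1.0 to -0.73). Interferon-stimulated genes (21) had a median of -0.07 and 2 (9.52%) lower. Cholesterol and fatty acid synthesis genes (17) had -0.13 and 1 (5.88%) lower, INSIG1 (-1.25, 3 probe sets, -1.30 to -1.21). Wnt targets (14) had a median of 0.38 with 3 (21.4%, against 3.91% of all genes tested) higher, among them SOX9 at 1.18 with inhibitor and 1.08 without. The others, TNFRSF19 (2.64) and SP5 (1.16), were kept only through the siCYLD inhibitor array where they are high. SP5 also differed by less than its gap of 1.67 between the siCYLD duplicates. DKK1, a secreted Wnt inhibitor on that list, differed by -0.24 with inhibitor and -1.29 without (interaction 1.05, SE 0.16, adjusted p = 0.00516). Hypoxia and glycolysis genes (28) had a median of 0.18, and the regulators of glycolysis PFKFB3 and PFKFB4 differed by -0.56 and 0.07 with inhibitor against 0.73 and 1.54 in DMSO (interactions -1.30, SE 0.26, and -1.47, SE 0.29, adjusted p = 0.0217 and 0.0218). Mesenchymal genes (21) had a median of 0.05, p53 targets (21) -0.22, YAP/TAZ targets (20) -0.24, plasminogen activator genes (8) 0.46 and stress response genes (26) -0.01. Kept fibroblast (5), leukocyte (3) and endothelial (4) markers had medians of -0.17, -0.20 and 0.07. The fibroblast markers went both ways: DCN, a matrix proteoglycan, read 27.6 in siCtrl and 131 in siCYLD with inhibitor (1.76), against 62.7 to 124 in DMSO, and FBLN1 differed by -0.78. The part of these markers in the other differences was not tested.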

How the data were processed

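RNA of 6 SAS samples was hybridised, 1 array per sample, from 2 µg of total RNA as biotinylated cRNA per the labels' protocols. The deposited intensity values are linear MAS5 signals, 1 per probe set, per the submitters' processing notes; the version and genome build are not given in the sources used here. Array numbers limit the precision. Of 54675 probe sets, 62 were controls, 41091 had 1 gene symbol, 1801 several and 11721 none; RefSeq's gene list held 41037 of them and altered 0 symbols.

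The scale was log2(signal + 16.06), with an offset equal to the 20th percentile over all arrays. Probe sets stayed in when at least 1 of the 4 group means passed a signal of 79.33, the median over all arrays, which left 24537 with 1 symbol. Each gene took its kept probe set of highest mean, giving 12935 of 19775 genes. The inhibitor pair was described by values. The DMSO knockdown and the interaction came from limma 3.58.1 in R 4.3.3 (tables read by data.table, version 1.17.8), on 4 group means with 2 residual and 10.9 prior degrees of freedom, moderation along the intensity trend, and Benjamini-Hochberg adjustment over all genes, two-sided. The fit was tested on simulated data. Promoter windows were searched in Python 3.11.15 with pandas 2.3.3, and figures drawn with matplotlib 3.10.9 and numpy 2.4.6.

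Named genes were CYLD and the 5 marker genes; the 12 highest and 12 lowest differences in which all of several kept probe sets were 2-fold; the 8 largest of each direction with 1 kept probe set; up to 4 members of each of 27 lists by difference and 2 by called interaction; the 10 largest called interactions in each direction among genes called in DMSO; and the 10 largest differences present in both pairs. Other genes with values (MKI67, TOP2A, CDC20, CST6, COL7A1, TNFAIP2, EGR1, FGF2, SNAI2, IL1B, CXCL2, IL32, ESPN, FAXDC2, RELB and TNFSF10) and the motifs were chosen after their values or sequences were seen. Members, lists and comparison were chosen with earlier results of these data known. Alternatives were the offset, the filter, quantile normalization, the rule for several probe sets, the moderation, the replicate block, single arrays left out and the grouping by source name.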

Additional observations from a re-analysis of the deposited data

Results flagged for a closer look

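The knockdown difference with inhibitor differed from that without it, by the interaction in limma (adjusted p under 0.05), for 216 genes. The following named genes met that criterion, and each value is the interaction on the log2 scale, the inhibitor difference minus the DMSO difference.

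Of genes tied to NF-κB, AP-1 and growth factors, a higher difference with inhibitor was measured for TNFAIP3 (2.01), SGPP2 (2.03), ICAM1 (1.04), CXCL1 (1.42), IL6 (1.04), PTX3 (2.95), TNFAIP2 (1.0), EDN1 (2.52), NRP1 (0.98), TGFA (0.81), EREG (0.76), FOS (1.498) and EGR1 (0.68). Of genes of the cell cycle and DNA synthesis it was higher for HMMR (1.44), CKAP2L (3.24), KIFC1 (2.25), RRM2 (2.13), DDIAS (1.97), DTL (1.90), MKI67 (1.73), TOP2A (1.57) and CDC20 (1.59). Others with a higher difference were TIMP3 (1.88), LOXL2 (1.40), PSMB8 (0.84), DKK1 (1.05), SYT15 (2.61) and ESPN (2.58).

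A lower difference with inhibitor was measured for the TGF-β-linked genes FN1 (-4.67), TGFBI (-2.87), THBS1 (-1.57), SCG5 (-3.32), PMEPA1 (-2.60), SMAD7 (-1.38), SMURF2 (-0.88), CST6 (-1.98), COL7A1 (-1.92), SNAI2 (-1.14) and CDKN1A (-0.94). It was also lower for SGK1 (-1.59), SLC47A2 (-3.0), MMP9 (-2.09), KRT5 (-0.84), DSP (-0.80), PFKFB3 (-1.30), PFKFB4 (-1.47), FGF2 (-0.97), FAXDC2 (-3.42), MSC-AS1 (-2.83), MDGA1 (-2.70), SUN3 (-2.38) and ADAM33 (-2.13). None of these calls was kept when the moderation did not follow the intensity trend or when the DMSO arrays were grouped by source name.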

How the results depend on the processing

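The count of 870 genes that were 2-fold apart in the inhibitor pair was 435 with an offset of 64, 1982 with no filter on dim genes and 525 with a filter at the 60th percentile. Among the 6445 genes with several kept probe sets, which leaves out 611 of the 870, it was 81 where all of them had to be 2-fold. An offset of 1, quantile normalization, the mean of probe sets, leaving out probe sets that may cross-hybridise, and the duplicate gaps kept it between 751 and 1081. The share that was higher ran from 53.7% to 60.4%, and was 63% among the 81. The knockdown without inhibitor called 2757 genes, 1219 without the intensity trend, 0 with arrays grouped by source name, and 2111 to 2734 with single arrays left out. The knockdown by inhibitor interaction called 216, 33 with no filter, 95 with the mean of probe sets, 134 without probe sets that may cross-hybridise, 0 without the intensity trend, 0 by source name, and 288 to 458 without single DMSO arrays, 343 without siCtrl replicate 1, 458 without siCYLD replicate 1 and 362 without siCYLD replicate 2. Leaving out single arrays leaves a group with 1 array, assumed to vary as the others do. Without both arrays of conflicting labels no residual degrees of freedom were left, so values alone were computed. With the replicate number as a block the interaction called 723 and the DMSO knockdown 3688 genes. Deviations of arrays with the same number correlated at 0.0447 over genes, with 2 numbers. That value cannot show whether arrays of the same number share a culture or batch, which was not tested.

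Of the 52 named interactions called, 39 were lost with no filter, 22 with the mean of probe sets, 5 with an offset of 1 and 52 without the intensity trend. Directions turned in a few genes. SYT15 was at -0.86 in the pair and -0.87 in the interaction with an offset of 1, and its interaction ran from -0.76 to 2.69 without single DMSO arrays, being -0.74 without siCtrl replicate 2, and was -0.998 without both arrays of conflicting labels. In the pair NODAL was at -1.54 with no filter, and FN1 at -0.19 without probe sets that may cross-hybridise. The CYLD signals fell by title: the probe set that differed by -2.33 with inhibitor read 485 and 550 in the arrays titled siCtrl and 77.2 and 125 in those titled siCYLD. By source name, which puts 1 array titled siCtrl and 1 titled siCYLD in each DMSO group, the interactions were 2.98 for SGK1, 0.65 for MMP9, 2.09 for FN1, 0.093 for SCG5, 1.05 for PMEPA1, -0.16 for TIMP3, -0.81 for HMMR, -1.20 for KIFC1, -0.34 for DKK1, -0.36 for TOP2A, -0.014 for CDC20, 0.10 for COL7A1 and 0.0099 for FGF2. Beyond the settings' own construction, the cause was not tested. Dim genes limit the comparison: in the lowest quartile of signal, duplicates alone differed 2-fold in 250 and 235 genes.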
